A study of Mus musculus with 8 samples.

Results

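Glycine cleavage and one-carbon metabolism were described here by 35 genes, namely the rows of the deposited expression table whose gene name equalled one of 35 listed symbols, out of 19429 genes in the table. All 35 were found. The list was drawn up around a lack of Amt transcripts in the WT lines, which was not analysed here. The RNA came from LF2 mouse embryonic stem cells (mESCs) grown with LIF and 10% FBS, in which both the WT and the D2018A lines carried a C-terminal FLAG tag on TET1. WT lines 2 and 5 had wild type TET1 and D2018A lines 7 and 8 had the D2018A substitution in TET1, each line with 2 technical replicates, which gives 4 libraries of 2 lines per genotype. By the study's methods each line was grown from a single cell, and the WT lines also carry a deletion distal to the CRISPR/Cas9 cut site that the D2018A lines lack, so line, deletion and TET1 genotype cannot be told apart from these groups alone. The paper also measured cells with wild type TET1 and an intact copy of the deleted stretch, which are not among these groups. From them it attributed the differences in gene expression and 5mC to D2018A and not to the deletion.

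The values are levels and not differences. The table gives 1 pooled mean per gene, the authors' mean of normalised counts over all libraries in their analysis, with no value for any single library and therefore no spread between replicates. At least 12 sets of counts entered this mean, against the 8 samples described above. The source of the further sets was not analysed here. Its other columns hold the authors' own comparison of the genotypes and were not used, so whether any of these genes differed between WT and D2018A cells was not analysed here. Intervals beside a mean or ratio are 95% counting intervals, which cover counting error only and assume the same level in every library. Apart from shares of summed means and a rank given by mean, levels are compared between genes as the mean per kb of annotated exon. The reference is the distribution of that quantity over 12403 protein-coding genes with a mean of at least 10, whose median was 56.07 per kb and whose 10th and 90th percentiles were 6.716 and 402.2 per kb.

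The glycine cleavage system is a mitochondrial enzyme complex that splits glycine into carbon dioxide, ammonia and a one-carbon unit bound to tetrahydrofolate. GLDC decarboxylates glycine, the lipoyl carrier GCSH passes the remainder on, AMT releases ammonia and loads the one-carbon unit onto folate, and DLD reoxidises the carrier. Folate then delivers such units to purine and thymidylate synthesis and to the methionine cycle, which makes S-adenosylmethionine, the methyl donor for DNA and histones. Mouse embryonic stem cells are known for threonine breakdown as a source of glycine and one-carbon units.

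All 4 glycine cleavage genes had a CCAAT box, the core of the binding site of the NF-Y factor, within 250 bases upstream of the RefSeq start. The sequences below show it in capitals, or its reverse complement ATTGG for Gldc, each 5′ to 3′ on the gene's own strand and outside annotated exons. Amt is shown over the whole 198 bases that the window covers before its first annotated exon, because that stretch lies between Amt and the neighbouring gene Nicn1, and the others with up to 20 bases on either side. The build is GRCm38.p6, and the positions are chr9:108296655-108296852 on the plus strand for Amt, chr19:30175483-30175527 on the minus strand for Gldc, chr8:116993630-116993674 and chr8:116993538-116993572 on the minus strand for Gcsh, and chr12:31351525-31351569 on the minus strand for Dld.
Amt: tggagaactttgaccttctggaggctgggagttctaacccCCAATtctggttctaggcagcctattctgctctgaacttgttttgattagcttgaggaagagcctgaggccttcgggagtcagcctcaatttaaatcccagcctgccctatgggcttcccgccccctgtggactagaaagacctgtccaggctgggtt
Gldc: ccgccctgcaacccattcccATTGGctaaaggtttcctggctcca
Gcsh, distal: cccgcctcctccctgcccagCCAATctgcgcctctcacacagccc
Gcsh, proximal: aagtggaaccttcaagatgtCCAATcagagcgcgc
Dld: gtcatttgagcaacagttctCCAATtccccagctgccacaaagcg

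The first base of the box lay 210 bases before the RefSeq start in Amt, 66 in Gldc, 156 and 54 in Gcsh, and 78 in Dld. A RefSeq promoter window, from 250 bases before to 50 bases after a start within 500 bases of the deposited gene start, could be matched to 24 of the 35 genes and to 11264 protein-coding genes of the table. CCAAT on either strand was present in 16 of these 24 windows (66.67%) and in 38.54% of all windows. The E-box CACGTG, a palindrome, was present in 4 windows (16.67%), those of Atic, Cbs, Gcat and Tyms, and in 9.757% of all. TGATGNAA on either strand, the core of the amino acid response element that ATF4 binds, was present in 0 of the 24 windows and in 2.228% of all. At so low a share, 0 of 24 cannot be told apart from the share of all windows. Genes without a window, and so not searched for any motif, were Tdh, Mthfd2, Psat1, Mat2b, Aldh1l1, Aldh1l2, Cth, Slc25a32, Fpgs, Ggh and Folr1. No match of one motif in these 24 windows overlapped a match of another. A match is a description of letters and not a binding site.

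Of the 4 glycine cleavage genes, Gcsh, Amt and Gldc lay above the reference median and Dld lay well below it. Gcsh (chr8:116981810-116993537, minus strand) had a mean of 365.5 (counting interval 354.7 to 376.4), or 231.5 per kb, at percentile 82.26 of the reference. Amt (ENSMUSG00000032607, chr9:108296853-108302302, plus strand) had a mean of 469.8 (457.5 to 482.1), or 192.8 per kb, at percentile 78.89. Gldc (chr19:30098449-30175418, minus strand) had a mean of 726.8 (711.5 to 742.1), or 119.3 per kb, at percentile 68.81. Dld (chr12:31331277-31351453, minus strand), which also serves the 2-oxoacid dehydrogenase complexes, had a mean of 41.49 (37.84 to 45.15), or 11.27 per kb, at percentile 17.13. Per kb, Gcsh was 20.55 times and Amt 17.11 times the level of Dld. Every mean here pools both genotypes. If Amt transcripts are lacking in the WT lines, the Amt mean comes from part of the libraries and its counting interval, which assumes 1 level in all of them, does not hold.

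**Figure D1:**
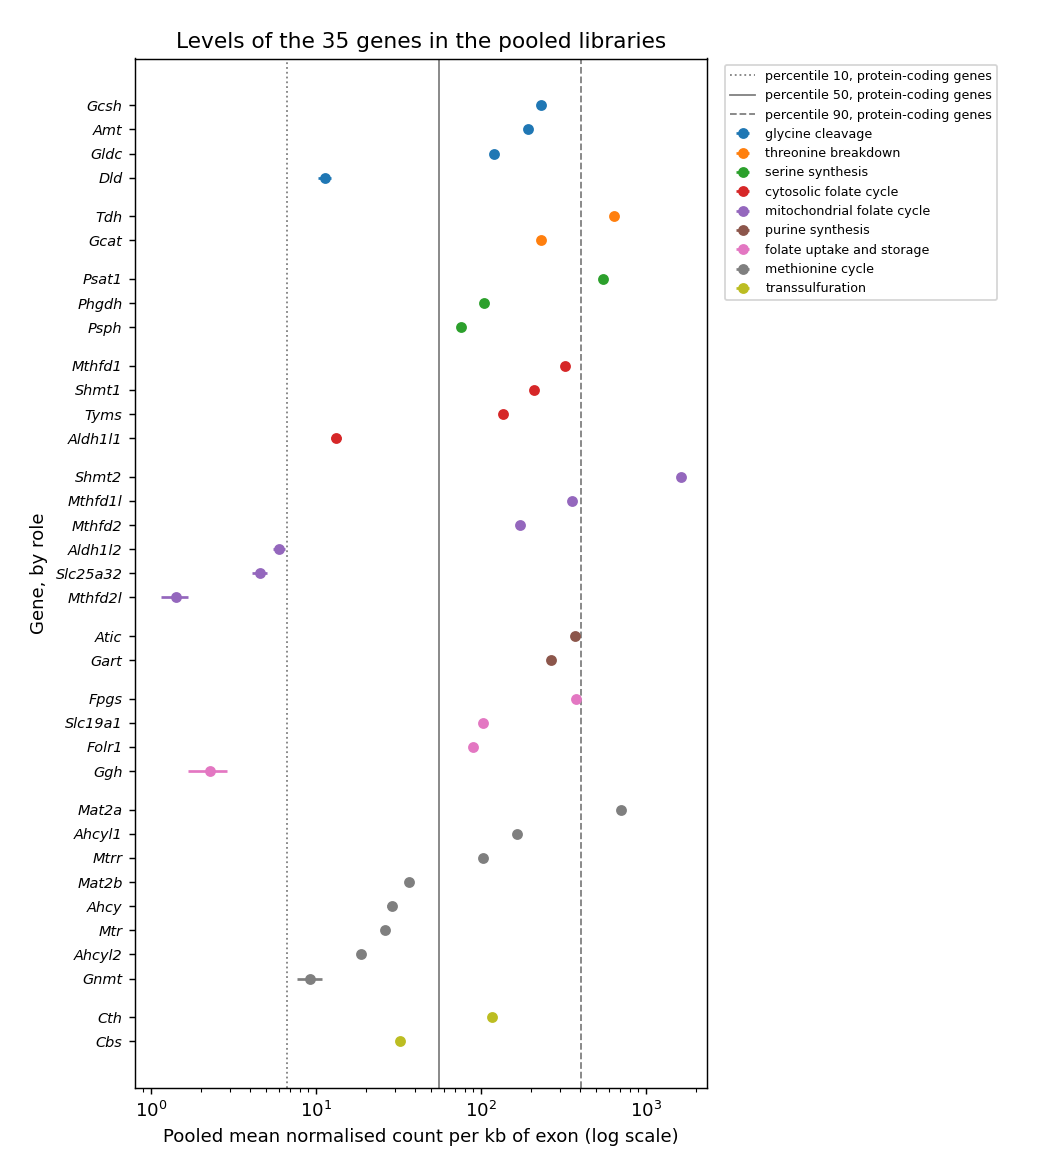
Pooled mean normalised count per kb of exon on a log axis for each of the 35 genes, grouped by role, with horizontal bars for the 95% counting interval and vertical lines at percentiles 10, 50 and 90 of protein-coding genes. Shmt2 lies farthest right at 1623 per kb, Mthfd2l and Ggh farthest left at 1.415 and 2.287 per kb with overlapping intervals, and Dld stands apart from the other glycine cleavage genes at 11.27 per kb.

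Across all 35 genes, 23 (65.71%) were at or above the reference median per kb, 12 were below it, and the median gene, Cth, stood at 117.0 per kb. Shmt2, Mat2a, Tdh and Psat1 were above percentile 90 of the reference, which is 4 genes (11.43%). Mthfd2l and Ggh had a mean under 10, which is 5.714% of the 35 against 26.8% of the 16950 protein-coding genes in the table. The 35 genes were 0.1801% of the genes in the table and together held 0.2745% of the summed means of all genes. Shmt2 alone held 16.8% of the sum of the 35. Genes next to each other in the order of levels per kb were not tested against each other, since replicate spread is unknown. Overlap of separate intervals is no test of a difference. In that order, 8 of the 34 neighbouring pairs had overlapping counting intervals. These were Fpgs and Atic, Gcsh and Gcat, Gldc and Cth, Phgdh and Mtrr, Mtrr and Slc19a1, Ahcy and Mtr, Dld and Gnmt, and Ggh and Mthfd2l.

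Both genes of threonine breakdown were above the reference median. Tdh, threonine dehydrogenase, the first step of the pathway, had a mean of 1679 (1656 to 1703), or 642.3 per kb, at percentile 94.32. Gcat, which cleaves the product into glycine and acetyl-CoA, had a mean of 687.9 (673.1 to 702.8), or 230.2 per kb, at percentile 82.17. Tdh was 2.79 times Gcat per kb.

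The 3 genes of serine synthesis from glycolytic 3-phosphoglycerate were also all above the median. Psat1, the aminotransferase of the pathway, had a mean of 2326 and 546.8 per kb, at percentile 93.07. Phgdh, the dehydrogenase that opens the pathway, had a mean of 260.9 and 105.0 per kb, and Psph, the phosphatase that ends it, had 328.7 and 75.94 per kb. The Phgdh value is uncertain because of copies of its sequence described below.

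The mitochondrial folate cycle held the highest of the 35 genes, Shmt2, and 3 genes below the median. Shmt2, the mitochondrial serine hydroxymethyltransferase that makes glycine and a one-carbon unit from serine, had a mean of 5045 and 1623 per kb, at percentile 98.47. Mthfd1l, which releases formate, had a mean of 1590 and 358.5 per kb, and Mthfd2, the dehydrogenase and cyclohydrolase before it, had 604.5 and 173.4 per kb. The other 3 genes were low. Aldh1l2, which oxidises formyl-folate, had 44.77 and 5.967 per kb, Slc25a32, the carrier that brings folate into mitochondria, had 27.82 and 4.574 per kb, and Mthfd2l, the second mitochondrial dehydrogenase, had 9.405 and 1.415 per kb.

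In the cytosolic folate cycle, 3 of 4 genes were above the median. Mthfd1, a trifunctional enzyme that interconverts the cytosolic one-carbon folates, had a mean of 1439 and 324.0 per kb. Shmt1, the cytosolic serine hydroxymethyltransferase, had 812.2 and 209.2 per kb, and Tyms, thymidylate synthase, had 823.1 and 135.2 per kb. Aldh1l1, the cytosolic formyl-folate dehydrogenase, had 59.9 and 13.26 per kb, at percentile 19.77. Gart and Atic, the enzymes of purine synthesis that take formyl groups from folate, had means of 1360 and 2984, or 264.3 and 373.7 per kb.

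In each of 6 pairs of related genes compared per kb, the 2 genes differed by more than counting error. The mitochondrial Shmt2 exceeded the cytosolic Shmt1 by a log2 ratio of 2.96 (95% counting interval 2.93 to 2.99). Mthfd2 exceeded Mthfd2l by 6.94 (6.67 to 7.21), the widest of the 6. The ratio of Mthfd1 to Mthfd1l was near even at -0.15 (-0.18 to -0.12), and its sign turned, to 0.042, when the longest annotated transcript served as the length. Aldh1l2 over Aldh1l1 stood at -1.15 (-1.31 to -0.99). Ahcyl1 over Ahcyl2 was 3.13 (3.08 to 3.18) and Gldc over Amt -0.69 (-0.74 to -0.64), and these point values became 2.10 and -0.23 with the longest transcript, and the exons of Gldc add up to 6091 bases against 3767 in its longest transcript. The Gldc over Amt ratio is of pooled means, its interval has the limit given for Amt above, and it was not analysed within either genotype.

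**Figure D2:**
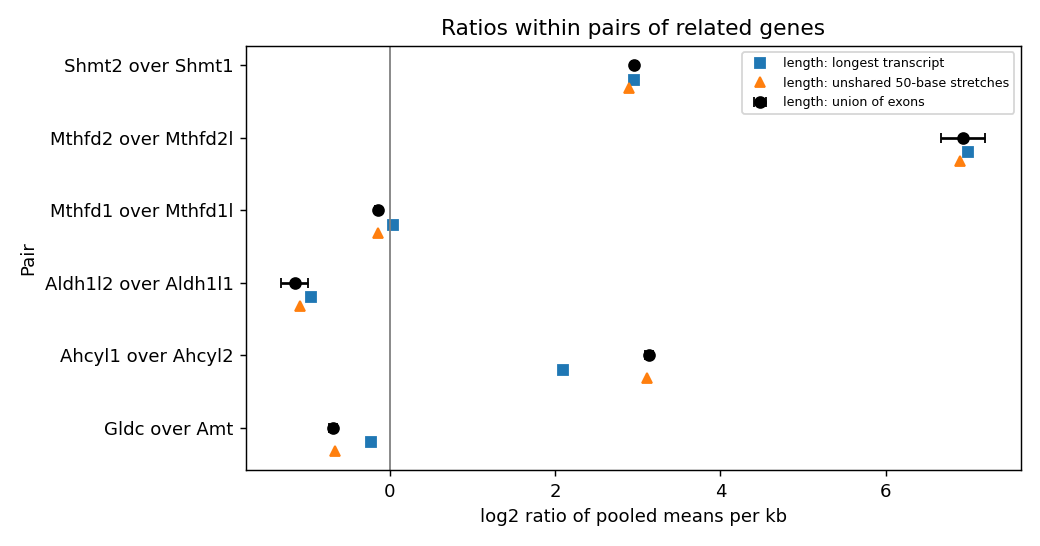
Log2 ratio of pooled means per kb for 6 pairs of related genes, as black points with 95% counting intervals, and under 2 other length definitions as squares and triangles. Mthfd2 over Mthfd2l is the widest at 6.94, and only Mthfd1 over Mthfd1l crosses 0, at 0.042 with the longest transcript.

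For folate uptake and storage, 3 of 4 genes were above the median. Fpgs, which adds the glutamate tail that keeps folate in the cell, had a mean of 1425 and 374.7 per kb. Slc19a1, the reduced folate carrier, had 475.6 and 102.4 per kb, and Folr1, a folate receptor, had 205.7 and 89.56 per kb. Ggh, the hydrolase that removes the tail, had a mean of 4.494 (2.287 per kb).

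In the methionine cycle, 5 of 8 genes were below the median, among them Ahcy, whose value is uncertain as described below. Mat2a, the catalytic subunit that makes S-adenosylmethionine, had a mean of 3177 and 708.3 per kb, at percentile 95.04, and its regulatory partner Mat2b had 183.7 and 36.73 per kb. Mtrr, which reactivates methionine synthase, had 538.6 and 103.6 per kb, and Mtr, methionine synthase itself, had 223.2 and 26.19 per kb. Gnmt, which consumes S-adenosylmethionine with glycine, had 11.15 and 9.244 per kb. Ahcyl1 and Ahcyl2, relatives of the hydrolase AHCY, had means of 1102 and 342.9, or 164.7 and 18.78 per kb. In transsulfuration, Cth, which releases cysteine, had 326.5 and 117.0 per kb and Cbs, which makes cystathionine, had 243.5 and 32.53 per kb.

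Ahcy (ENSMUSG00000027597), which hydrolyses the S-adenosylhomocysteine left by methylation, had a mean of only 80.96, or 28.86 per kb, at percentile 35.22, and this value is uncertain. Reads were 50 bases long, and 68.7% of the 50-base stretches of its exons occur in another annotated gene. Most of these, 65.99% of all Ahcy stretches, occur in Gm4737, a single-exon gene annotated as protein-coding at chr16:46152985-46155077 on the minus strand, which had a mean of 621.7 and 297.0 per kb. Of the Gm4737 stretches 93.69% occur in another annotated gene, so its level is uncertain too. Gm4737 was singled out after its values were seen. The coding sequences of the 2 genes are both 1296 bases long and differ at 4 of them (99.69% identity), and 89.33% of the 50-base stretches of the coding sequence are identical. A 60-base stretch from coding exon 2 of 10 of Ahcy and its counterpart in Gm4737 show that a read from either gene there has the same letters. The stretches are chr2:155068959-155069018 and chr16:46154925-46154984, minus strand, from the GENCODE transcripts on GRCm38.
Ahcy, exon 2: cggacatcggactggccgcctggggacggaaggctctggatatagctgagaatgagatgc
Gm4737: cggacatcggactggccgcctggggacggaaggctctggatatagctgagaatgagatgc

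A stretch from coding exon 5 holds 2 of the 4 differences, in capitals, the most of any stretch of that length within 1 exon. The positions are chr2:155064867-155064926 and chr16:46154508-46154567, minus strand.
Ahcy, exon 5: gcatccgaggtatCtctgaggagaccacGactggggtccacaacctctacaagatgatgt
Gm4737, same stretch: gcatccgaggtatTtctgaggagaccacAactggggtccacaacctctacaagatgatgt

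When the whole mean was divided by the length of unshared stretches alone, which is right only if no read from a shared stretch was counted, Ahcy stood at 92.42 per kb, at percentile 61.05, above the median instead of below it. Phgdh was the other gene with a large shared part. Of its stretches 47.78% occur elsewhere, chiefly in processed pseudogenes such as Gm7901 with 38.33%, and the same division gave 205.3 per kb against 105.0. How the authors' counting treated reads with several matching places is not given in the sources used here, and the part of shared sequence in these levels was not tested. In all, 8 of the 35 genes shared at least 10% of their stretches with another gene, against 16.76% of reference genes, and 12 shared none. A match on either strand counted as shared. Tdh, Gcat, Gart, Mat2a, Aldh1l1 and Aldh1l2 each shared between 10.02% and 15.48%. For Gart, Mat2a, Aldh1l1 and Aldh1l2 most of this was with a gene annotated over the same bases, and not with a copy elsewhere. Of the genes below the reference median, Ahcy, Aldh1l1 and Aldh1l2 shared at least 10% and each of the others at most 2.339%.

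**Figure D3:**
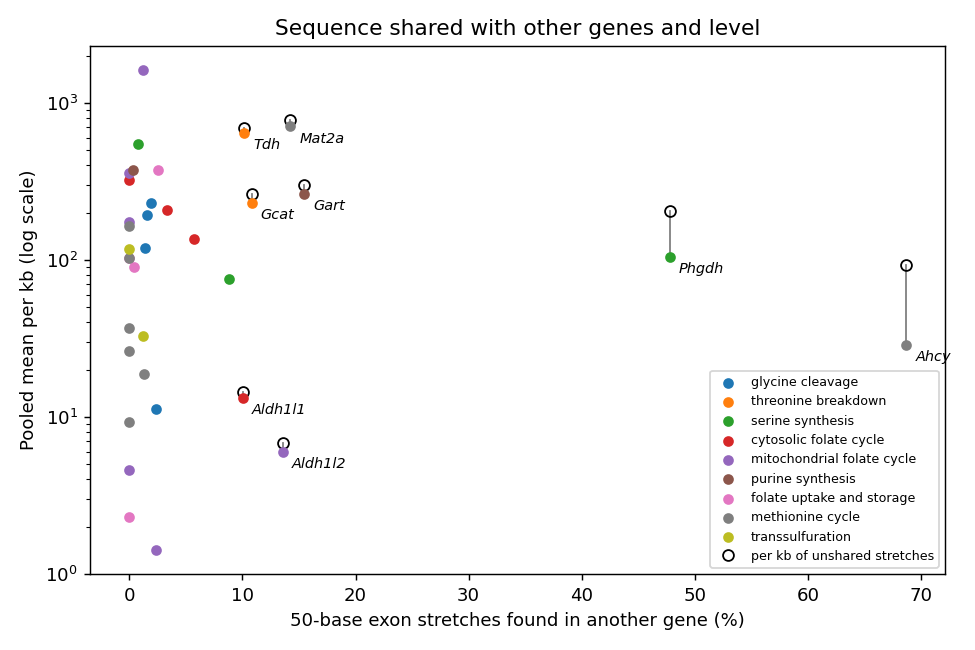
Share of 50-base exon stretches found in another gene, in percent, against the pooled mean per kb on a log axis, 1 filled point per gene, with open circles for the whole mean divided by the length of unshared stretches in the 8 genes at 10% or more. Ahcy at 68.7% and Phgdh at 47.78% lie far to the right, and their open circles stand at 92.42 and 205.3 per kb.

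Around Amt on chromosome 9, pooled levels per kb differed widely between neighbouring genes. Whether the deletion in the WT lines covers any of these genes was not analysed here, and for a gene that it covers the mean would mix deleted and intact libraries. Nicn1, on the same strand, ended 354 bases before the first base of Amt and had a mean of 291.2 and 102.7 per kb. Tcta, on the opposite strand, began its span 655 bases beyond Amt, had 20.73 and 11.28 per kb, and overlapped Rhoa by 32 bases. Rhoa, a small GTPase of the actin cytoskeleton, had 136.5 per kb. Gpx1, a glutathione peroxidase, stood at 7044 per kb and Dag1, dystroglycan, at 971.7, whereas Bsn, a protein of neuronal synapses, stood at 6.171. Amt shared 1.535% of its 50-base stretches with other genes.

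**Figure D4:**
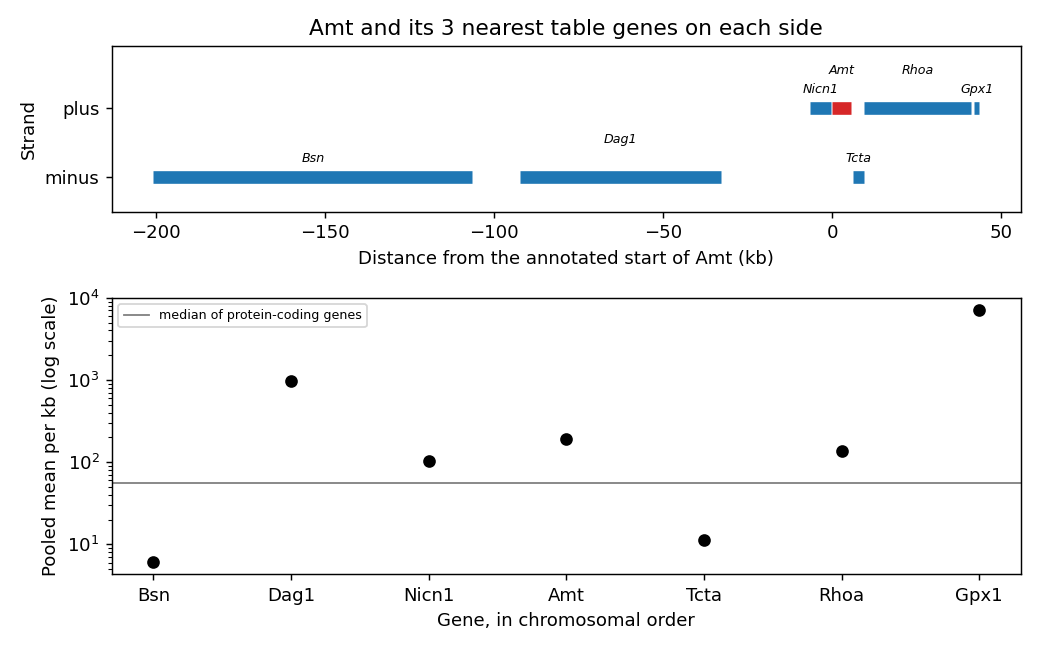
Upper panel, spans of Amt in red and of the 3 nearest table genes on each side in blue by strand, in kb from the annotated start of Amt. Lower panel, pooled mean per kb on a log axis, 1 point per gene, with a line at the median of protein-coding genes; Amt at 192.8 stands above its direct neighbours on either side, Nicn1 at 102.7 and Tcta at 11.28.

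Markers were read once to check the label of embryonic stem cells. The 10 pluripotency genes were all above percentile 90 per kb, with means between 977.2 and 23079. Of 6 fibroblast feeder markers, 4 were in the table, with Col1a2 at 0.6889 and Col3a1 at 0.09302, but Col1a1 at 114.7 and Thy1 at 194.1. Thy1 was at percentile 53.48 per kb and the other 3 were below the reference median. Of 7 germ layer markers, 6 were in the table and 0 reached the reference median per kb, but 5 had a mean of at least 10, with Sox1 at 199.0 and Pax6 at 189.7.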

How the data were processed

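RNA was depleted of ribosomal RNA and made into Lexogen SENSE libraries, and reads of 50 bases were aligned and counted with STAR 2.5.3a against GRCm38.p6. The authors normalised the counts with DESeq2 1.20.0 and deposited 1 table, whose only column used here is the mean normalised count per gene over all libraries (a signal, normalised by size factors). Its remaining columns hold the authors' log2 fold change, standard error, statistic and p-values for the genotypes, and were not used, so no test was made. Gene coordinates and exons came from GENCODE vM21; 19351 identifiers matched, and 31 of the 35 genes had the same coordinates. Gcat is annotated there as 2 overlapping genes, which were joined. Promoters came from RefSeq. The number of sets of counts in the mean was read from the smallest means. These fall on steps of 1 read divided by a size factor and that number. There were 12 such steps, each shared by 38 to 123 genes, which gave 12 or more sets. With the number taken as 12, size factors ran from 0.7258 to 1.474. The counting intervals also take it as 12. The 95% counting interval reached 17.94% to either side of a mean of 10, 5.673% of 100 and 1.794% of 1000. Steps and shared stretches were checked on simulated data. Depth per library is unknown. Python 3.11.15, numpy 2.4.6 and pandas 2.3.3 were used. The 35 genes, the lists and the motifs were chosen with earlier results of these data known. Each of the 35 genes was named, and some other genes of the pathway are not reported here by name.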

Additional observations from a re-analysis of the deposited data

Results flagged for a closer look

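The pooled means hold more sets of counts than the samples described. Their smallest values fall on 12 single-read steps, whereas 8 samples are described, so at least 4 further sets of counts entered the mean and the normalisation. Whether those sets came from other libraries or from the described samples was not analysed here, and each level given above includes them.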

How the results depend on the processing

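The number of genes at or above the reference median stayed between 18 (of the 27 genes that share under 10% of stretches) and 27 (reference genes without a minimum mean), against 23. The number above percentile 90 was 8 against 4 with no minimum mean, and 4 to 6 under the other choices. Genes under the detection minimum numbered 0 at a minimum of 3 and 4 at 30, against 2 at 10, as the minimum alone fixes. With the longest annotated transcript as length, Mthfd1 over Mthfd1l turned from a log2 ratio of -0.15 to 0.042, Aldh1l2 over Aldh1l1 stood at -0.95, Ahcyl1 over Ahcyl2 at 2.10 and Gldc over Amt at -0.23. With unshared stretches as length, Shmt2 over Shmt1 stood at 2.89. The unshared stretches and the set without sharing genes were chosen after seeing the data. So were the steps shared by at least 20 or 35 genes (12 steps each). The alternative of stretches that occur once in the genome was not run, since only annotated transcripts were searched. No paired analysis was possible because the result comes from no test, and no library could be left out of a pooled mean. Counting error limits Mthfd2l and Ggh most.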

Other observations

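Among 25 other genes of the pathway, 16 had a mean of at least 10 and 9 stood at or above the reference median per kb. Pipox, a peroxisomal sarcosine oxidase that forms glycine, was the highest with a mean of 1014 and 410.5 per kb, followed in mean by Nfu1, an iron-sulfur cluster protein needed for lipoate synthesis, at 731.9. The glycine transporter Slc6a9 had a mean of 432.5. The 9 genes with a mean under 10 were Mat1a, Bhmt, Bhmt2, Ftcd, Sardh, Dmgdh, Sds, Sdsl and Nnmt, most of them known for expression in liver. The lipoate genes Lias, Lipt1 and Lipt2 had means of 257.1, 100.8 and 79.0.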
